A study of Mus musculus with 9 samples.

Results

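The outer ring of the 20S proteasome, the alpha ring, is made of 7 subunits encoded by Psma1 to Psma7. All 7 genes were taken by name as the subunits of this ring, and all 7 were found among the 14443 gene symbols that stood in all 3 deposited tables. The samples were neonatal rat ventricular cardiomyocytes (NRVMs), primary heart muscle cells from Sprague Dawley pups of 1 to 2 days of age. After 48 h in culture, every sample was infected with adenovirus at a multiplicity of infection of 50, and poly(A) RNA was sequenced 48 h later as single-end reads of 75 bases. The LacZ group (3 samples) received the control virus for β-galactosidase, the Nrf1 group (3 samples) the virus for Nrf1 and the Nrf2 group (3 samples) the virus for Nrf2. In all 3 viruses a CMV promoter, which is active in any infected cell type, drove the insert, the vector also carried a red fluorescent protein, and the Nrf2 insert was the mouse coding region. No uninfected sample was analysed here, so the infection itself was shared by all groups. GEO gives the organism as mouse, whereas the cell type, the strain and the alignment to Rnor_6.0 are of rat. Nothing in the labels tells separate cultures or litters from repeat wells, so the p-values below measure only the spread between these 9 libraries, which may be technical.

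The proteasome is the barrel-shaped protease that degrades ubiquitin-tagged proteins. Around the alpha ring the subunits stand in the order Psma6, Psma2, Psma4, Psma7, Psma5, Psma1 and Psma3. The N-terminal tails of the alpha subunits, that of Psma4 foremost, form the gate to the catalytic chamber of the beta rings, and the pockets between neighbouring alpha subunits receive the 19S cap and other activators. Ring assembly comes before the beta subunits join and is guided by chaperones, and Psma7 is known to be able to take the place of Psma4 in an alternative ring. Nrf1 and Nrf2 are related leucine zipper transcription factors that bind antioxidant response elements. Nrf1 is known for raising proteasome genes when proteasome activity is short, and Nrf2 for raising detoxifying and glutathione genes. Heart muscle cells depend on the proteasome for turnover of their contractile proteins.

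Promoter windows of the mouse genes (RefSeq, GRCm38.p6, 250 bases before to 50 after the start of transcription) were searched, since rat sequences were not used here. They covered all 7 members in 8 windows. The core antioxidant response element, TGACNNNGC on either strand, was found in 0 of 7 members and in 12.4% of all 32851 mouse windows. The looser TGANNNNGC, which includes every match of the former, was found in 4 of 7 members (Psma4, Psma5, Psma6 and Psma7) and in 41.3% of all windows. CCAAT, the box bound by NF-Y, was found in 5 of 7 members (Psma1, Psma2, Psma3, Psma6 and Psma7) and in 37.4% of all windows. These matches describe letters of mouse windows and are not binding sites, and a window without a match says nothing of the factor. Psma5 and Psma7 are shown because they marked the 2 ends of the response to Nrf2 described below. Each is written 5′ to 3′ on the strand of the gene, with matches to TGANNNNGC or CCAAT on either strand in capitals. The Psma5 window lies at chr3:108256676-108256975 on the plus strand and that of Psma7 at chr2:180042415-180042714 on the minus strand.
Psma5: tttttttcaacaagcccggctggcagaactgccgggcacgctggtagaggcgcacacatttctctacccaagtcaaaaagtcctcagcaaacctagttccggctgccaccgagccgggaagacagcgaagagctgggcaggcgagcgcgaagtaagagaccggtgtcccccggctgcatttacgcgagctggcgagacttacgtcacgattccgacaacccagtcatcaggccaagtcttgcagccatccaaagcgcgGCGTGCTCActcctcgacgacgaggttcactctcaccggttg
Psma7: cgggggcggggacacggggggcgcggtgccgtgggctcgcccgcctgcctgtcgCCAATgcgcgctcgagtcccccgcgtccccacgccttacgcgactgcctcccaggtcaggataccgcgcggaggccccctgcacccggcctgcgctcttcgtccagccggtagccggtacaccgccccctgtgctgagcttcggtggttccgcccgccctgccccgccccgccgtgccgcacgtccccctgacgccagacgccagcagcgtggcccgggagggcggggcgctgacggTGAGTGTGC
The Psma5 window held a single TGANNNNGC match and no CCAAT. The Psma7 window held 1 match of each.

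The tables give the mean normalized count of each group, computed separately for each pair of groups. Because each group mean is a sum of whole reads times fixed steps, and each group stands in 2 tables with different steps, the reads of the single libraries could be recovered (99.97% to 100% of the shared genes). Libraries are numbered 1 to 3 within a group by ascending total, and these numbers are not the replicate numbers of the labels. Totals ran from 7816885 to 9274392 reads in LacZ, from 8598296 to 10356088 in Nrf1 and from 10197816 to 11960378 in Nrf2. The correlation of log2 normalized counts was 0.991 to 0.996 within groups and 0.914 to 0.956 between groups. LacZ library 2 was higher than the other LacZ libraries in some markers of non-muscle cells (table with Nrf1). It had 912 normalized counts of Dcn against 611 and 603, 445 of Lum against 207 and 191, and 930 of Lyz2 against 626 and 645. Other such markers, among them Col1a1, Kdr, Emcn and Acta2, were lowest in library 2. Kdr had 318 there against 361 and 383, and Acta2 14688 against 16604 and 18156. Library 2 also had the lowest summed cardiomyocyte markers (without Nppa) of its group. Without it the median log2 ratio of the ring was 1.07 for Nrf1 over LacZ (1.09 with it) and 0.43 for Nrf2 over LacZ (0.48 with it), and 7 and 3 members passed the fold, as with it. Nfe2l2, the gene of Nrf2, had 3425 to 3513 normalized counts in LacZ and 68031 to 79249 in the Nrf2 libraries, in accord with the labels. Nfe2l1, the gene of Nrf1, is not analysed here. Each alpha ring gene had at least 751 and at most 4147 reads in every library. Libraries of a group differed beyond sampling noise over all genes (chi-square per degree of freedom of 1.48 to 4.95 for pairs), so none was counted as a repeat of another. For the alpha ring the spread between libraries was at or under the counting error in 8 of 21 combinations of gene and group and at most 2.96 times that error in the others, so the small standard errors below mark closely similar samples.

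With Nrf1, all 7 alpha ring genes rose. The fold of the group means, Nrf1 over LacZ, ran from 1.84 for Psma6 to 3.14 for Psma5, and all 7 passed the fold of 1.5 that served as the threshold. Of all genes, 13.5% were higher past that fold. By limma on the recovered reads, which tests each gene across the 6 libraries of the pair with Benjamini-Hochberg adjustment, 7 of 7 also passed an adjusted p of 0.05 together with the fold, against 11.3% of the genes tested (34.4% at any fold). The ring's median log2 ratio was 1.09, against a median of 0.05 over all genes whose mean reached 100.

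**Figure D1:**
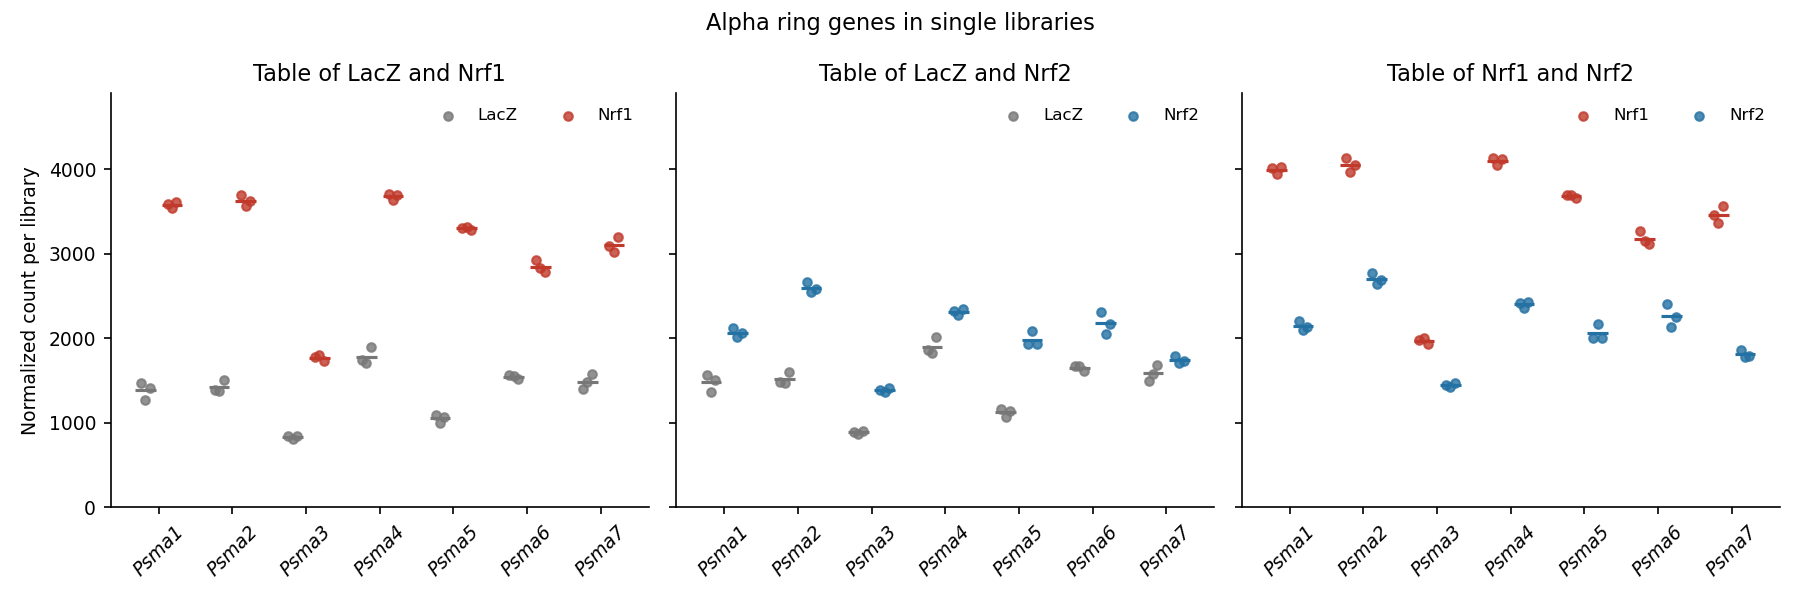
Normalized count (y axis, linear from 0) of each alpha ring gene (x axis) in single libraries, in the 3 tables, each of which has its own scaling. Points are libraries and bars are group means, and the libraries of the 2 groups of each table do not overlap for any of the 7 genes.

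Psma5, a subunit on whose inner face an assembly chaperone rests, had 1087, 998 and 1072 normalized counts in the LacZ libraries and 3309, 3320.2 and 3286 in the Nrf1 libraries. Its Nrf1 libraries lay close together and far over all LacZ libraries, the widest gap of the ring. The change was log2 1.65 ± 0.0411 (SE), adjusted p = 2.08e-14 by limma (n = 3 and 3). Psma1, its neighbour in the ring, had 1468, 1274 and 1411 in LacZ and 3596, 3541 and 3612 in Nrf1 (log2 1.37 ± 0.0468 (SE), adjusted p = 8.14e-13 by limma). The LacZ libraries of Psma1 were the most scattered of the ring, with library 2 the lowest, and still lay far under every Nrf1 library. Psma2, which stands between Psma6 and the gate subunit Psma4, had 1391, 1373 and 1506 in LacZ and 3702, 3562 and 3632 in Nrf1 (log2 1.35 ± 0.0415 (SE), adjusted p = 2.39e-13 by limma). These 3 genes had the largest log2 changes of the ring.

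The other 4 members rose by between 1.84 and 2.13 times. Psma3, known outside the proteasome as a partner of the cell cycle inhibitor p21, had 839, 811 and 844 in LacZ and 1777, 1797 and 1730.0 in Nrf1 (log2 1.09 ± 0.0417 (SE), adjusted p = 3.07e-12 by limma). It was the least abundant alpha transcript in both groups. Psma7 had 1401, 1478 and 1575 in LacZ and 3099, 3023 and 3198 in Nrf1 (log2 1.07 ± 0.0446 (SE), adjusted p = 8.96e-12 by limma). Psma4, the main gate subunit, had 1748, 1703 and 1891 in LacZ and 3708, 3638 and 3694 in Nrf1 (log2 1.05 ± 0.0413 (SE), adjusted p = 4.39e-12 by limma). Its lowest Nrf1 library lay far over its highest LacZ library. Psma6 had 1564, 1559 and 1512 in LacZ and 2931, 2828 and 2791 in Nrf1 (log2 0.88 ± 0.0376 (SE), adjusted p = 1.10e-11 by limma), the smallest change of the ring. Libraries of the 2 groups did not overlap for 7 of 7 members, which was also so, in the higher direction, for 36.2% of genes tested.

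With Nrf2, the alpha ring was also higher than with LacZ, by less than with Nrf1 in each of its 7 members. The fold of the group means ran from 1.10 for Psma7 to 1.76 for Psma5. Psma5, Psma2 and Psma3 passed the fold of 1.5, that is 3 of 7 members, where 12.9% of all genes were higher past that fold. At an adjusted p of 0.05 by limma and any fold, 7 of 7 were higher, against 28.6% of genes tested, and 3 of 7 passed with the fold as well (9.18%). The ring's median log2 ratio was 0.48, against 0.01 over all genes whose mean reached 100.

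Psma5 had 1159.9, 1068 and 1143 normalized counts in the LacZ libraries and 1928, 2084 and 1928 in the Nrf2 libraries (log2 0.82 ± 0.0471 (SE), adjusted p = 2.80e-09 by limma). Psma2 had 1484, 1469 and 1605 in LacZ and 2667, 2547 and 2587 in Nrf2 (log2 0.78 ± 0.0430 (SE), adjusted p = 1.81e-09 by limma). For both genes every Nrf2 library stood well over the highest LacZ library. Psma3 had 895, 868 and 900.1 in LacZ and 1392, 1369 and 1409.5 in Nrf2 (log2 0.65 ± 0.0423 (SE), adjusted p = 1.13e-08 by limma). With its fold of 1.57, Psma3 was the member nearest to the threshold from above, and it fell under it (log2 0.57) when the group means were scaled to equal sums.

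Psma1 had 1566, 1364 and 1505 in LacZ and 2118, 2018 and 2059 in Nrf2 (log2 0.48 ± 0.0495 (SE), adjusted p = 1.29e-06 by limma). Psma6 had 1669, 1668 and 1613 in LacZ and 2316, 2052 and 2168 in Nrf2 (log2 0.40 ± 0.0458 (SE), adjusted p = 4.12e-06 by limma). For Psma6 the Nrf2 libraries were the more scattered ones, with library 1 the highest, and all lay over the LacZ libraries. Psma4 had 1866, 1823 and 2016 in LacZ and 2325, 2276 and 2343 in Nrf2 (log2 0.28 ± 0.0429 (SE), adjusted p = 5.76e-05 by limma). Psma7 had 1495, 1582 and 1679 in LacZ and 1792, 1709 and 1725 in Nrf2 (log2 0.14 ± 0.0465 (SE), adjusted p = 0.0219 by limma). Its highest LacZ library came close to its lowest Nrf2 library, the narrowest gap of the ring. By limma, the call for Psma7 was lost without LacZ library 1 (log2 0.10, adjusted p = 0.118), without Nrf2 library 1 (0.12, adjusted p = 0.093), without Nrf2 library 3 (0.14, adjusted p = 0.0509) and when reads were scaled by library totals (log2 0.05, adjusted p = 0.383), against 0.14 with all libraries, so the call for Psma7 was near the threshold. Libraries of the groups did not overlap for 7 of 7 members, as for 31.7% of genes tested in the higher direction.

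**Figure D2:**
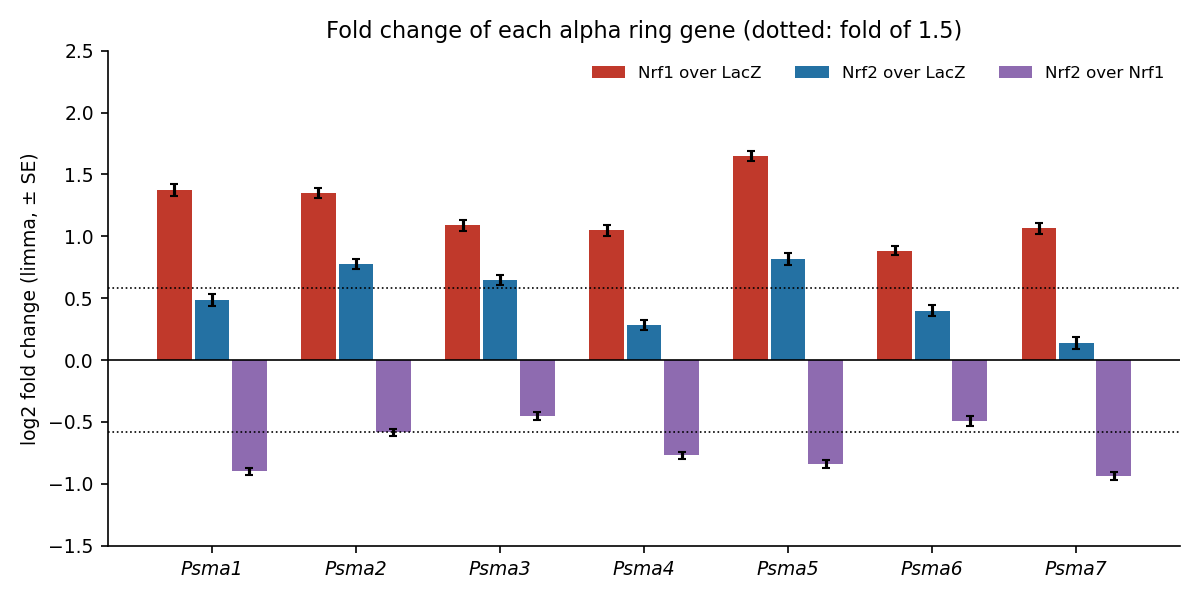
The log2 fold change by limma (y axis) of each alpha ring gene (x axis) in the 3 comparisons, with the standard error from 3 libraries per group and dotted lines at a fold of 1.5. Every gene was above 0 with Nrf1 and with Nrf2 and below 0 for Nrf2 over Nrf1, with Psma5 highest against LacZ at 1.65 and 0.82.

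The direct comparison of both factors put all 7 alpha ring genes lower with Nrf2 than with Nrf1. In the table that holds only the Nrf1 and Nrf2 libraries, 4 of 7 members (Psma1, Psma4, Psma5 and Psma7) were lower past the fold of 1.5, against 7.39% of all genes. At an adjusted p of 0.05 by limma and any fold 7 of 7 were lower, against 29.8% of genes tested, and 4 of 7 passed with the fold (4.63%). The median log2 ratio of the ring, Nrf2 over Nrf1, was -0.77, with -0.03 over all genes whose mean reached 100.

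Psma7 had 3460.1, 3368 and 3569.8 normalized counts with Nrf1 and 1863, 1774 and 1793 with Nrf2, 1.91 times lower (log2 -0.94 ± 0.0316 (SE), adjusted p = 2.98e-14 by limma). It was the member with the largest fold between both factors. Psma1 had 4015, 3946 and 4032 with Nrf1 and 2202, 2095 and 2139 with Nrf2 (log2 -0.90 ± 0.0284 (SE), adjusted p = 1.26e-14 by limma). Psma5 had 3695, 3699.6 and 3667 with Nrf1 and 2005, 2165 and 2003 with Nrf2 (log2 -0.84 ± 0.0321 (SE), adjusted p = 1.57e-13 by limma). Psma5 was thus among the members that differed most between the factors, although it was the highest over LacZ with each of them. Psma4, the gate subunit, had 4139.9, 4053 and 4124 with Nrf1 and 2417, 2364 and 2435 with Nrf2 (log2 -0.77 ± 0.0268 (SE), adjusted p = 4.33e-14 by limma).

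Psma2, Psma6 and Psma3 stood closer together. Psma2 had 4134, 3969.6 and 4054 with Nrf1 and 2773, 2644 and 2688 with Nrf2 (log2 -0.58 ± 0.0283 (SE), adjusted p = 4.52e-12 by limma), a fold of 1.4999 (as Nrf1 over Nrf2) just under the threshold of 1.5. Psma6 had 3273, 3152 and 3115 with Nrf1 and 2408, 2131 and 2253 with Nrf2 (log2 -0.49 ± 0.0377 (SE), adjusted p = 3.19e-09 by limma). Psma3 had 1984, 2002 and 1931 with Nrf1 and 1448, 1421 and 1465 with Nrf2 (log2 -0.45 ± 0.0328 (SE), adjusted p = 1.56e-09 by limma). For each of the 7 members every Nrf2 library lay under every Nrf1 library, as for 32.3% of genes tested in the lower direction. All 3 comparisons are made from the same 9 libraries, so the comparisons with LacZ share their control samples and none is independent evidence for another.

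Summed over the 7 genes, the ring took a CPM (reads scaled to the library total) of 1067, 1088 and 1118 in the LacZ libraries (lowest, middle and highest), 2341, 2379 and 2396 with Nrf1, and 1406, 1426 and 1453 with Nrf2. The 3 groups were therefore fully separated also on a scale that uses no size factors. The members did not rise in proportion, and the make-up of the ring's transcripts shifted. A share here is the reads of a gene per kilobase of mouse coding length over the sum of the ring, a ratio within a library that no scaling between libraries can move. The shares and their changes do depend on the lengths used, and shares by transcript length were not computed. Psma5 took 11.5% ± 0.340 of the ring (SD, n = 3) in LacZ, 15.6% ± 0.197 with Nrf1 and 14.3% ± 0.857 with Nrf2. Psma6, at the other side, took 16.5% ± 0.794 in LacZ, 13.2% ± 0.268 with Nrf1 and 15.4% ± 0.674 with Nrf2. The share of Psma5 was hence higher with each factor than in any LacZ library, whereas that of Psma6 was lower with Nrf1 than in any LacZ library, and its LacZ and Nrf2 libraries overlapped.

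**Figure D3:**
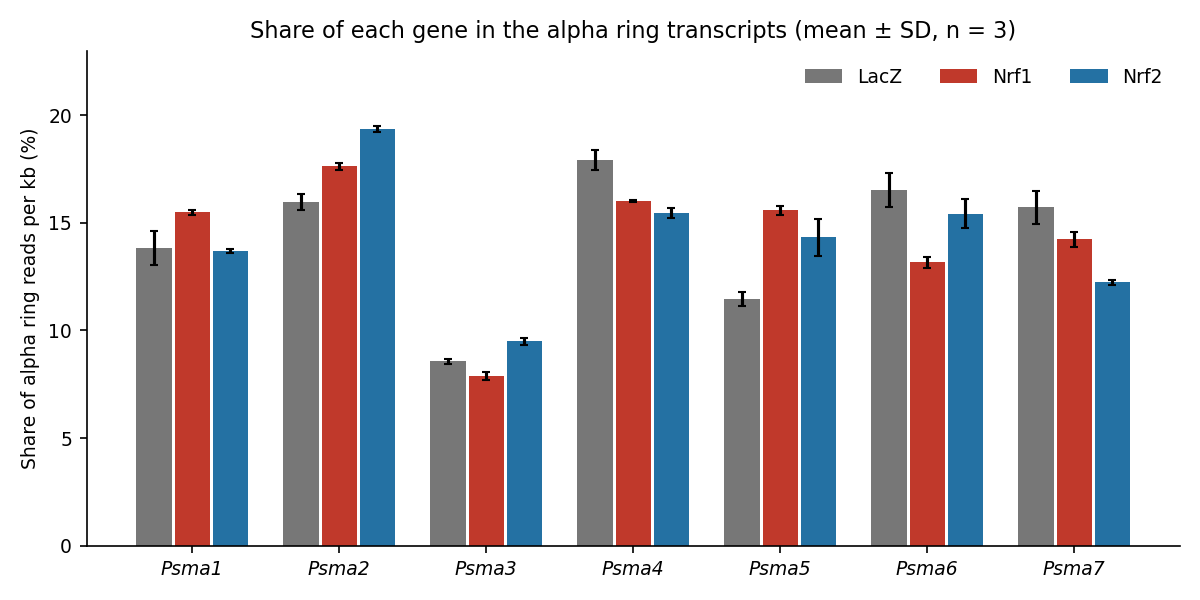
Share of each gene (x axis) in the reads per kilobase of mouse coding length of the alpha ring (y axis, percent), as the mean of 3 libraries with SD. Psma5 goes from 11.5% in LacZ to 15.6% with Nrf1, Psma2 reaches 19.4% with Nrf2, and Psma7 is at 12.2% with Nrf2.

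Psma2 and Psma7 separated all 3 groups in opposite order. Psma2 had a share of 16.0% ± 0.375 in LacZ, 17.6% ± 0.172 with Nrf1 and 19.4% ± 0.124 with Nrf2. Psma7 had 15.7% ± 0.758 in LacZ, 14.2% ± 0.357 with Nrf1 and 12.2% ± 0.104 with Nrf2. Psma4 also took less with either factor, with 17.9% ± 0.448 in LacZ, 16.0% ± 0.0444 with Nrf1 and 15.5% ± 0.236 with Nrf2. Psma3 went in opposite directions, from 8.57% ± 0.125 in LacZ to 7.88% ± 0.194 with Nrf1 and to 9.50% ± 0.165 with Nrf2, while Psma1 had 13.8% ± 0.779, 15.5% ± 0.103 and 13.7% ± 0.102. Libraries did not overlap for 7 of 7 shares between Nrf1 and LacZ, for 5 of 7 between Nrf2 and LacZ (all but Psma1 and Psma6) and for 7 of 7 between Nrf2 and Nrf1. No share over all genes corresponds to these counts, which are a description. With 3 libraries against 3, an exact two-sided permutation test of a share cannot give a p under 0.10, and the shares sum to 100 within a library, so they are not independent of each other.

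Per kilobase of mouse coding length, the ring's normalized counts lay within 2.09 times of each other in LacZ. Psma4 was the highest there at 2266, above every library of the next gene. Psma6 at 2085, Psma2 at 2019 and Psma7 at 1988 followed, and their libraries overlapped from each to the next. Psma1 at 1748, Psma5 at 1449 and Psma3 at 1082 came last, each apart from the next. With Nrf1 the order was Psma2 at 5152, Psma4 at 4682, Psma5 at 4552, Psma1 at 4524, Psma7 at 4159, Psma6 at 3846 and Psma3 at 2302. Of neighbours in that order, Psma5 and Psma1 overlapped and the others did not. By coding length Psma5 had thus moved from next to last in LacZ to the upper part of the ring. With Nrf2, in the table with LacZ and by coding length, Psma2 was again first, Psma3 last, and Psma7 stood just over Psma3. Psma4, Psma6, Psma5 and Psma1 lay between, with overlapping libraries from each to the next. The orders rest on mouse lengths. Divided by mouse transcript length in place of coding length, the highest level in LacZ was 5.56 times the lowest and in Nrf1 5.47 times. The order also changed. By transcript length Psma7 was highest in LacZ at 1624 and with Nrf1 at 3399, and Psma6 with Nrf2 at 2091. Psma2 was next to last in each group, at 489 in LacZ, 1248 with Nrf1 and 893 with Nrf2. Psma5, at 849 in LacZ and 2667 with Nrf1, stood directly above Psma2 in both, so its move up was absent. The levels and the shares of the ring thus depend on the length chosen, whereas the log2 ratios of a gene do not.

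Other subunits of the standard proteasome were also higher with Nrf1. The counts past the fold in the lists that follow stand against 13.5% of all genes higher with Nrf1, 12.9% higher with Nrf2 and 7.39% lower with Nrf2 than with Nrf1. The beta ring, which holds the proteolytic sites (Psmb1 to Psmb7), rose in 7 of 7 members with Nrf1, from Psmb1 (log2 ratio 0.77) to Psmb3 (1.78), with a median of 1.12. With Nrf2 its median was 0.28 against 0.48 for the alpha ring, and 1 of 7 beta genes passed the fold against 3 of 7 alpha genes, a difference that was not tested. A count of 1 of 7 is near the share over all genes. Psmb3 was that gene (0.66) and Psmb2 the lowest (0.09). Between the factors the beta ring had a median of -0.95, from Psmb4 (-1.28) to Psmb5 (-0.44), with 5 of 7 lower past the fold.

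The 19S base, whose ATPases insert their tails into the alpha pockets, rose past the fold in 10 of 10 members with Nrf1 (median 1.11, Psmd4 lowest at 0.77 and Psmc5 highest at 1.38) and 1 of 10 passed it with Nrf2, near or under the share over all genes (median 0.26, Psmd4 lowest at 0.11 and Psmd1 highest at 0.60). Between the factors 10 of 10 were lower past the fold with Nrf2 (median -0.71, from -1.20 for Psmc4 to -0.62 for Psmc3). The 19S lid, which removes ubiquitin, rose past the fold in 8 of 9 members with Nrf1 (median 1.02), with Psmd11 highest at 1.36 and Shfm1 lowest at 0.25. With Nrf2 the lid had 2 of 9 past the fold (median 0.31), with Psmd6 highest at 1.15 and Psmd8 lowest at 0.05. Psmd6 was also the lid gene that went against its list, at 0.12 for Nrf2 over Nrf1, where 5 of 9 lid genes were lower past the fold (median -0.68, Psmd13 lowest at -1.06).

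**Figure D4:**
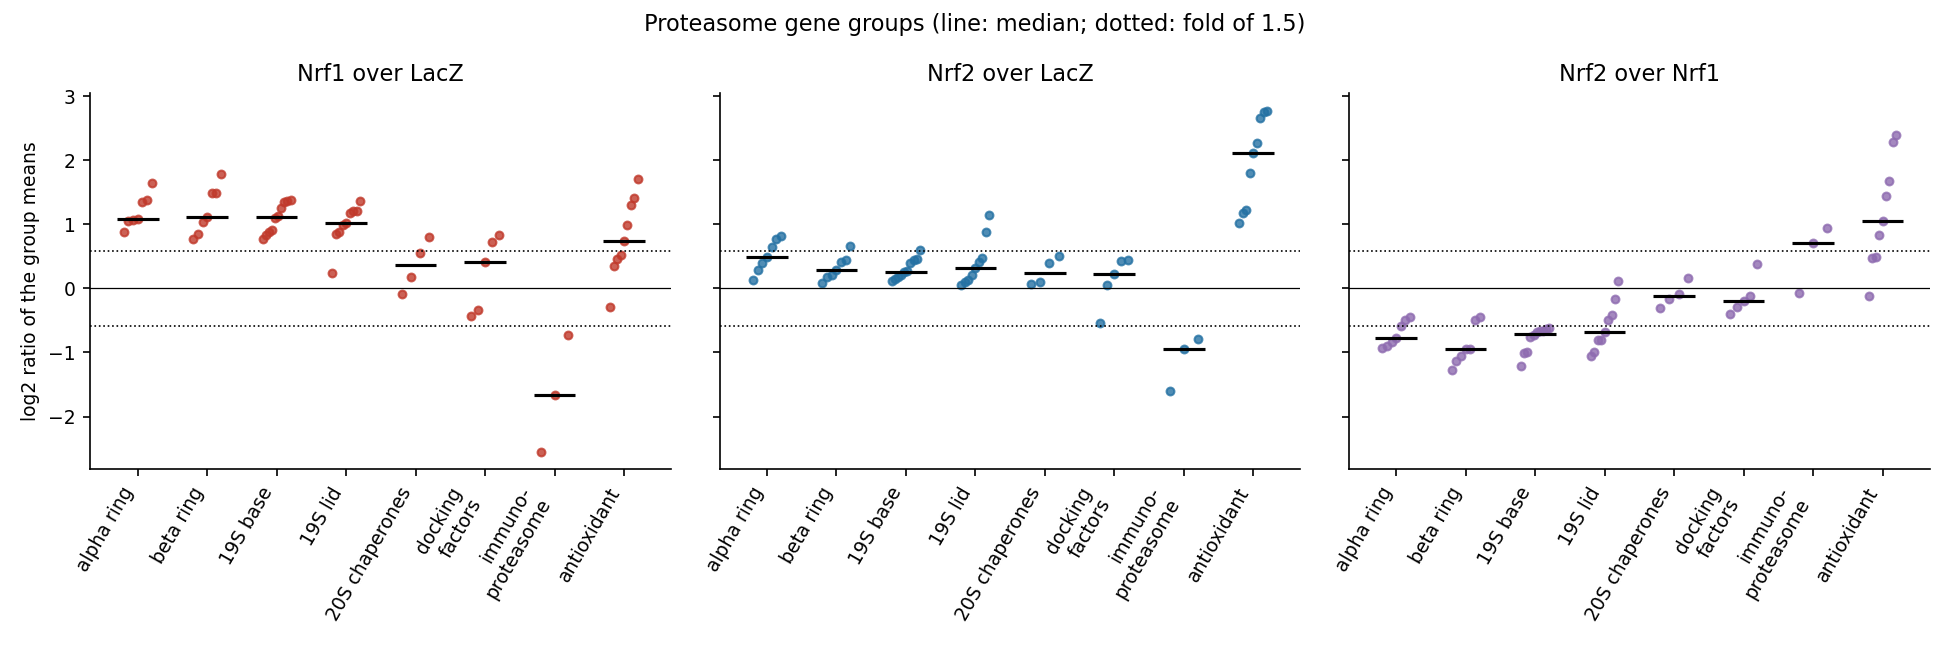
The log2 ratio of the group means (y axis) for single genes (points) of the alpha ring and of other gene groups (x axis) in the 3 comparisons, with the median of each group as a bar and dotted lines at a fold of 1.5. The alpha ring, beta ring and 19S genes have medians of 1.02 to 1.12 with Nrf1, and the immunoproteasome genes lie below 0 with either factor.

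The chaperones that build the alpha ring had smaller log2 ratios with Nrf1 than the ring's median, a difference that was not tested. Of 5 genes, 4 were found in the tables (Psmg3 is not analysed here), and 1 of 4 passed the fold with Nrf1. This was Pomp, which brings the beta subunits onto the finished alpha ring, at a log2 ratio of 0.80 with Nrf1 and 0.50 with Nrf2. Its Nrf1 libraries were scattered, at 1908, 1391 and 1295 normalized counts against 935, 900 and 803 in LacZ, so its fold leaned on Nrf1 library 1. Psmg1 and Psmg2 form a dimer on the outer face of the alpha ring and had 0.17 and 0.55 with Nrf1, and 0.10 and 0.39 with Nrf2. Psmg4, whose complex sits under Psma5, had -0.09 with Nrf1 and 0.08 with Nrf2. By limma Psmg4 with Nrf1 (adjusted p = 0.529) and Nrf2 (0.612) and Psmg1 with Nrf2 (0.183) did not pass. The median of the list was 0.36 with Nrf1 and 0.24 with Nrf2, against 1.09 and 0.48 for the alpha ring. The base chaperones (3 of 4 found) had medians of 0.79 and 0.48, from Psmd10 at 0.32 to Psmd9 at 0.91 with Nrf1, and from Psmd10 at 0.25 to Psmd5 at 0.77 with Nrf2. Psmd10 did not pass by limma with Nrf1 (adjusted p = 0.0601) or Nrf2 (0.127).

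Of 5 genes for factors that dock on the outer face of the alpha ring, 2 passed the fold with Nrf1. These were Psme4 (PA200) and Psmf1 (PI31), at log2 ratios of 0.84 and 0.72, and had 0.45 and 0.43 with Nrf2. Psme3, of the nuclear activator, had 0.42 and 0.23. Psme1 and Psme2, the interferon-inducible activator, had -0.33 and -0.43 with Nrf1, and 0.05 and -0.54 with Nrf2. By limma Psme2 with Nrf1 (adjusted p = 0.0658) and Psme1 with Nrf2 (0.395) did not pass. The immunoproteasome genes Psmb8, Psmb9 and Psmb10, which replace the catalytic beta subunits in immune cells and after interferon, fell past the fold in 3 of 3 with each factor, where 21.9% of all genes with Nrf1 and 14.1% with Nrf2 were lower past the fold. Psmb8 fell the most with Nrf1, at -2.56, and Psmb10 the least at -0.73. Psma8, the testis paralog of Psma7, was at or near 0, with means of 0.315 in LacZ and 0 in Nrf1 in their table.

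The antioxidant genes followed a different order from the alpha ring. Their median log2 ratio was 0.75 with Nrf1 and 2.11 with Nrf2, and 5 of 9 and 9 of 9 passed the fold, respectively, where 13.5% and 12.9% of all genes did. Srxn1, which repairs peroxiredoxins, was highest with either factor at 1.71 and 2.77. Slc7a11, the cystine transporter, was at -0.29 with Nrf1, against the direction of its list, and at 2.11 with Nrf2. Hmox1, the haem oxygenase, was the member that went against the list between the factors, at -0.12 for Nrf2 over Nrf1, where the median was 1.06.

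By the 3 log2 ratios, the genes most like the alpha ring's median among 8283 genes whose mean reached 100 in every table were Psmc6, Zfp180, Dym, Psmc1, Pla2g6, Tprn, Atp6v1h, Ubxn4, Ap3s2 and Usp5, at Euclidean distances of 0.101 to 0.133. Psmc6 and Psmc1 encode ATPases of the 19S base, the other 8 stand in none of the proteasome lists. All 10 were closer to the ring's median than any alpha gene itself, of which Psma4 (0.203) was the nearest and Psma5 (0.659) the farthest. Likeness over 3 ratios of 3 groups says nothing of shared function or control.

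The cultures held more than cardiomyocytes, and markers of several cell types moved in the same comparisons as the ring. Over all genes, 21.9% were lower past the fold with Nrf1, 14.1% lower with Nrf2, and 16.8% higher with Nrf2 than with Nrf1. Cardiomyocyte markers were abundant in every library, with sums over 6 genes of 89077 to 104832 normalized counts in LacZ and 103999 to 104691 in Nrf1. Nppa was left out of these sums, as its LacZ reads were not uniquely recovered, and it changed their direction. Without Nppa the mean sum went from 97302 in LacZ to 104233 in Nrf1. With it, the summed group means of all 7 genes went from 139009 to 131322. The 7 listed split with Nrf1, where Myh7 (log2 ratio -1.07), Tnni3 (-0.97) and Nppa (-0.62) were lower past the fold and Ryr2 (0.83) and Actc1 (0.63) higher (median -0.34). With Nrf2 no cardiomyocyte marker passed the fold (median 0.23). Fibroblast markers fell with Nrf1 in 9 of 9 genes (median log2 -1.91). Their sum, most of it Col1a1, ran from 115492 to 121036 in LacZ and from 29338 to 31661 in Nrf1. With Nrf2 7 of 9 fell past the fold (median -0.99), and the sum ran from 123140 to 129560 in LacZ and from 64294 to 69474 in Nrf2. Leukocyte markers fell past the fold in 5 of 6 genes with each factor (medians -1.38 and -1.30), with Csf1r against the list at 0.43 with Nrf1 and 0.08 with Nrf2. Endothelial markers had medians of -0.90 with Nrf1, where Kdr was at 0.14, and -1.003 with Nrf2. Smooth muscle and pericyte markers had medians of -1.01 and -0.21, while their mean sum, most of it Acta2, went from 21911 to 33298 with Nrf1 and from 23396 to 31415 with Nrf2.

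In the direct comparison, where the alpha ring was lower with Nrf2 than with Nrf1, fibroblast markers were higher past the fold in 7 of 9 genes (median log2 ratio 1.04) and Tcf21 was lower (-0.92). Their sum ran from 32759 to 35279 with Nrf1 and from 66763 to 72193 with Nrf2. Of cardiomyocyte markers 3 of 7 were higher past the fold with Nrf2 (median 0.42), with Tnni3 at 1.19 and Myh7 at 0.80. The medians were -0.22 for endothelial, 0.70 for smooth muscle and pericyte and -0.07 for leukocyte markers. No marker was at 0 in any group mean, and the part of cell composition in the alpha ring's changes was not tested. In such bulk samples, more cells of a type and more RNA per cell cannot be told apart.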

How the data were processed

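Per the study's methods and the labels, NRVM RNA was made into stranded mRNA libraries (KAPA mRNA HyperPrep), aligned with HISAT2 2.0.4 to Rnor_6.0, cleared of duplicates with SAMtools 0.1.18 and counted per gene with featureCounts 1.6.0. The authors deposited 3 tables, 1 for each pair of groups, of a coverage-like signal: the mean normalized count of each group, with no column for a single sample. Their columns of fold changes and p-values were not used. Duplicate removal by position would bound the reads of a gene by its length. Psma1 reached 4055 reads in a library for a mouse transcript of 1201 bases, so how duplicates were removed is not clear here. The strand setting of the counting is not given in the sources used here.

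The log2 ratio of the deposited group means, called past a fold of 1.5, was the measure planned. As these means are pooled values, all values of single libraries, their SDs and the tests rest on reads recovered from them, a step added after the data were seen. A group mean is the sum over 3 libraries of reads times a step, and the whole reads that met both tables of a group within rounding (largest error 5.01e-06) were unique for 14675 of 14679 genes in LacZ, 14579 of 14579 in Nrf1 and 14746 of 14746 in Nrf2. Size factors recomputed from the recovered reads by the median of ratios lay within 0.01% of those of the steps. These libraries could not be matched to the replicate numbers. Genes whose mean reached 10 in 1 or both groups were tested with limma 3.58.1 (R 4.3.3, trend) on log2(normalized count + 1), within each pair, with Benjamini-Hochberg adjustment over all genes tested; a count model was not run. The procedure was tested on simulated data.

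The alpha ring, the other gene lists and the tests were chosen with earlier results of these data known. Named were all members, the highest, lowest and contrary genes of other lists, the chaperones and docking factors, and the 10 genes nearest to the ring's 3 median ratios. Coding lengths are those of GENCODE M21 (mouse). Alternatives were other folds, scalings, a pseudocount, an indirect route through the other tables, other length corrections, no filter, and leaving out each library.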

Additional observations from a re-analysis of the deposited data

How the results depend on the processing

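No paired analysis was possible because the recovered libraries cannot be matched to the replicate numbers of the labels, so no fit with that number as a block was run. The planned comparison of alpha ring proteins was not run, as no protein table was used. No value of an alpha ring gene changed direction under any alternative tried. With Nrf1 against LacZ, 7 members stayed higher past the fold under every scaling and without any 1 library, and 6 at a fold of 2. With Nrf2 against LacZ the count was 3 without any 1 library and 2 with equal sums of the group means or with reads scaled by totals; it was 0 at a fold of 2 and 5 at the fold midway between 1 and 1.5. The count at an adjusted p of 0.05 by limma was 6 without LacZ library 1, Nrf2 library 1 or Nrf2 library 3 and under scaling by totals, the member lost being Psma7. With Nrf2 against Nrf1 the count of lower members was 4 to 5 without any 1 library and 5 with equal sums, 0 at a fold of 2 and 7 at that midway fold. The percent of all genes past the fold, restricted to genes whose mean reached 100, was 11.9 for lower with Nrf1 against LacZ, 7.64 higher and 6.66 lower with Nrf2 against LacZ, and 7.48 higher and 4.24 lower with Nrf2 against Nrf1, since fewer genes of low count remain. The ratio of the highest to the lowest level in the ring was 2.09 in LacZ and 2.24 in Nrf1 per coding length, 2.08 in Nrf1 when not divided by length, and 5.56 (LacZ) and 5.47 (Nrf1) per mouse transcript length. The looser motif gave 4 members where the core gave 0. Of single-gene values 6 moved by more than the spread between libraries under another scaling, the largest shift bringing Psma3 with Nrf2 to 0.57. Counting error alone gave an SD of 0.0232 to 0.0509 on the log2 scale for a member in a library, which limits how small a change of the ring can be resolved.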
